A study of Mus musculus with 2 samples.

Results

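The cells described here are the Higd1b-positive cells of a pair of mouse tumour sections, chosen as likely pericytes. Higd1b encodes a mitochondrial protein of the hypoxia-inducible domain family and is a widely used pericyte marker. A cell was taken when it held 80 or more gene counts, 2 or more counts of Higd1b, no count of Ptprc (CD45, the leukocyte marker) and 0 or 1 count of Epcam (an epithelial adhesion molecule). The rule found 568 cells among the 516855 cell barcodes of both sections. Of these, 354 lay in the EKP section, among 133173 cells of the required depth and 261111 barcodes. The other 214 lay in the RKP section, among 201447 cells of that depth and 255744 barcodes.

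Both sections came from subcutaneous tumours of C57BL/6 mice, 5 weeks old, that had received cultured tumour cells in each flank, mixed with Matrigel (a gel of basement membrane proteins). The groups were tumours of the line labelled EKP and tumours of the line labelled RKP, in a series on diffuse gastric cancer and mutant RHOA, a small GTPase. The labels spell out neither set of letters, nor the line to which the RHOA mutation belongs. Tumours were collected at similar final volumes and set in 1 paraffin block on 1 slide, so each line was represented by 1 section, and the mice behind a section are not numbered. The tumours were grown from cultured lines under the skin, not in the stomach. RNA of 479 genes was read in place with Xenium In Situ, an imaging assay that locates single molecules and sorts them into outlined cells. No test between the lines was possible. Ranges in parentheses after a ratio or a share are exact 95% intervals that cover counting error only.

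Pericytes are mural cells that sit in the basement membrane of capillaries and small venules, wrapped around the endothelial tube. Endothelial cells recruit them by secreting platelet-derived growth factor B, and they steady the vessel and take part in setting its calibre. Notch signals from the endothelium drive Hey-family repressors in mural cells. In tumours, pericytes are often loosely attached, and they share contractile genes such as Acta2, the smooth muscle actin, with smooth muscle cells and with activated fibroblasts.

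The start-site windows of 3 genes are printed because the contrast described below rests on them: Rgs5 and Hey2 stood far higher in the gated cells than in contractile stroma, and Acta2 did not. They come from the RefSeq table for mouse build GRCm38.p6 and run from 250 bases before the start site to 50 after it, 5′ to 3′ on the gene's strand. Capitals mark TGGGAA on either strand, a core that the Notch effector RBPJ is known to bind.
Rgs5, chr1:169655251-169655550, plus strand.
Rgs5: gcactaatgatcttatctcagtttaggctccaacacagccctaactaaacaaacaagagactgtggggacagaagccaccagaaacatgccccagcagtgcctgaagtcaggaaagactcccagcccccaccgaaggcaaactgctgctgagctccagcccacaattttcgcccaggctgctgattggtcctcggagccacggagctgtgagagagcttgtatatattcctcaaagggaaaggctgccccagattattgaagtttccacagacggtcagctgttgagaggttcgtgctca
Hey2, chr10:30842734-30843033, minus strand.
Hey2: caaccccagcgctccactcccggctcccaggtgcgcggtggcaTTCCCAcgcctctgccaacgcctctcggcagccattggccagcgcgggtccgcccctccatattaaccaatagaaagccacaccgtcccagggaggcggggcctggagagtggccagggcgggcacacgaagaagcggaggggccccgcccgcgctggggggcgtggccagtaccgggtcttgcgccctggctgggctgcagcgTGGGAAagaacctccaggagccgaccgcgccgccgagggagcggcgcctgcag
Acta2, chr19:34255324-34255623, minus strand.
Acta2: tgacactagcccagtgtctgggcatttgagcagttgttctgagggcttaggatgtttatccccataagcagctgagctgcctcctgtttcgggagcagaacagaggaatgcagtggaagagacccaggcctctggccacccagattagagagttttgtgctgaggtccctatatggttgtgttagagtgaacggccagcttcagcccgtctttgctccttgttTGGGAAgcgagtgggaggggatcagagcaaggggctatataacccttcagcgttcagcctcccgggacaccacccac

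The Hey2 window held TGGGAA with its first base at -207 and at -3 from the start site, the Acta2 window held it at -27, and the Rgs5 window did not hold it. Among all 32851 windows of the table, 25.6% held it, so a match is common and describes these letters only. Of the 12 genes looked up in the table, 9 were found.

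The gate set the number of cells in steps. Higd1b reached 2 counts in 632 cells of sufficient depth in EKP and in 425 in RKP. The condition on Ptprc removed 143 and 121 of them, and the condition on Epcam then removed 135 and 90. The remaining cells held 2 to 7 Higd1b counts in EKP and 2 to 6 in RKP. A single Higd1b count, just outside the threshold, occurred in 2489 cells of the required depth in EKP and in 1730 in RKP. As a reference for stray Higd1b signal, 55 of 41731 Epcam-high cells in EKP (0.132%) and 43 of 72085 in RKP (0.0597%) held 2 or more Higd1b counts, where Epcam-high means 5 or more Epcam counts. Those reference cells were deeper than the gated cells, with median totals of 264 and 244 gene counts.

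The gated cells were scarce in both sections and made up a larger share in EKP. They formed 0.266% (0.239 to 0.295%) of the cells of sufficient depth in EKP and 0.106% (0.0925 to 0.121%) in RKP. The EKP share was 2.50 times the RKP share (2.11 to 2.98). That share leaves out shallow barcodes, and 51.0% of EKP barcodes but 78.8% of RKP barcodes were deep enough. Among all barcodes there were 354 gated cells in 261111 in EKP and 214 in 255744 in RKP, a smaller gap. Cells of sufficient depth also include those that the Ptprc and Epcam limits exclude. Cells of that depth that passed both limits and had no Higd1b numbered 42014 in EKP and 48648 in RKP. Beside those the gap was also below 2.50 times. Measured against vessel cells the gap was smaller. There were 5.18 gated cells per 100 Pecam1-gated cells in EKP and 3.95 in RKP, or 1.31 times as many (1.10 to 1.56). Pecam1-gated cells are the endothelial reference here: 2 or more counts of Pecam1 (CD31), no Higd1b, and the same limits on depth, Ptprc and Epcam. Split into 10 consecutive blocks of cells in file order, EKP held 9 to 68 gated cells a block (0.102 to 0.511% of cells) and RKP held 10 to 40 (0.0502 to 0.195%). Per 100 Pecam1-gated cells the blocks ranged from 3.54 to 6.54 in EKP and from 1.75 to 6.45 in RKP, so the ranges of the sections overlapped on both scales. File order is not a known position in the tissue, and blocks of 1 section are not replicates.

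Depth differed little between the sections within the gated cells. Their median total was 182 gene counts in EKP and 159.5 in RKP, with quartiles of 139.25 and 238.75 in EKP and of 122 and 212 in RKP. Summed over cells they held 68309 and 36720 gene counts, so that 1 count is worth 14.6 and 27.2 counts per 1000000 gene counts (CPM), the scale of all levels below. Negative control probes gave 3 counts in the EKP cells and none in the RKP cells. The sections share 19 cell barcodes, and none belonged to a gated cell. Outside the gate, 51.0% of EKP barcodes and 78.8% of RKP barcodes reached 80 counts, with medians over all barcodes of 84 and 154.

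Of the marker genes that the gate did not use, Rgs5 set the cells apart and Acta2 did not. The pericyte list held 30 genes, of which 6 were on the panel. Pdgfrb, Cspg4, Kcnj8, Abcc9 and Notch3 were not measured, so the label rests on Rgs5, Ndufa4l2, Des, Aspn and Acta2 beside Higd1b itself. Rgs5, a regulator of G protein signalling that marks pericytes, stood at 43289 CPM in EKP and 45561 CPM in RKP. Its levels in Epcam-high cells were 907 CPM in EKP and 706 CPM in RKP. Only 5 gated cells in EKP and 2 in RKP had no Rgs5 count, and the highest single cells held 37 and 25. All of Rgs5, Acta2, Ndufa4l2, Mylk and Des were counted together in 171 gated cells in EKP (48.3%) and in 86 in RKP (40.2%).

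Because a deeper cell shows more genes, each cell was also thinned at random to 80 gene counts before detection was scored. After thinning, Rgs5 was seen in 92.1% in EKP and 94.9% in RKP among gated cells, against 5.19% in EKP and 4.29% in RKP among Epcam-high cells. Before thinning the shares were 98.6% and 99.1% of gated cells and 11.9% and 9.93% of Epcam-high cells. Acta2 was seen in 90.7% in EKP and 88.8% in RKP among thinned gated cells, but also in 75.0% in EKP and 68.5% in RKP among thinned Epcam-high cells. Whether Epcam-high cells express Acta2 or take in counts from neighbouring cells was not tested. Before thinning those shares were 97.7% and 98.1%, and 96.1% and 91.7%. The level of Acta2 was 40375 CPM in EKP and 34858 CPM in RKP in gated cells, against 26537 and 23490.0 CPM in all other cells, so detection of Acta2 does not tell these cells from the rest.

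**Figure D1:**
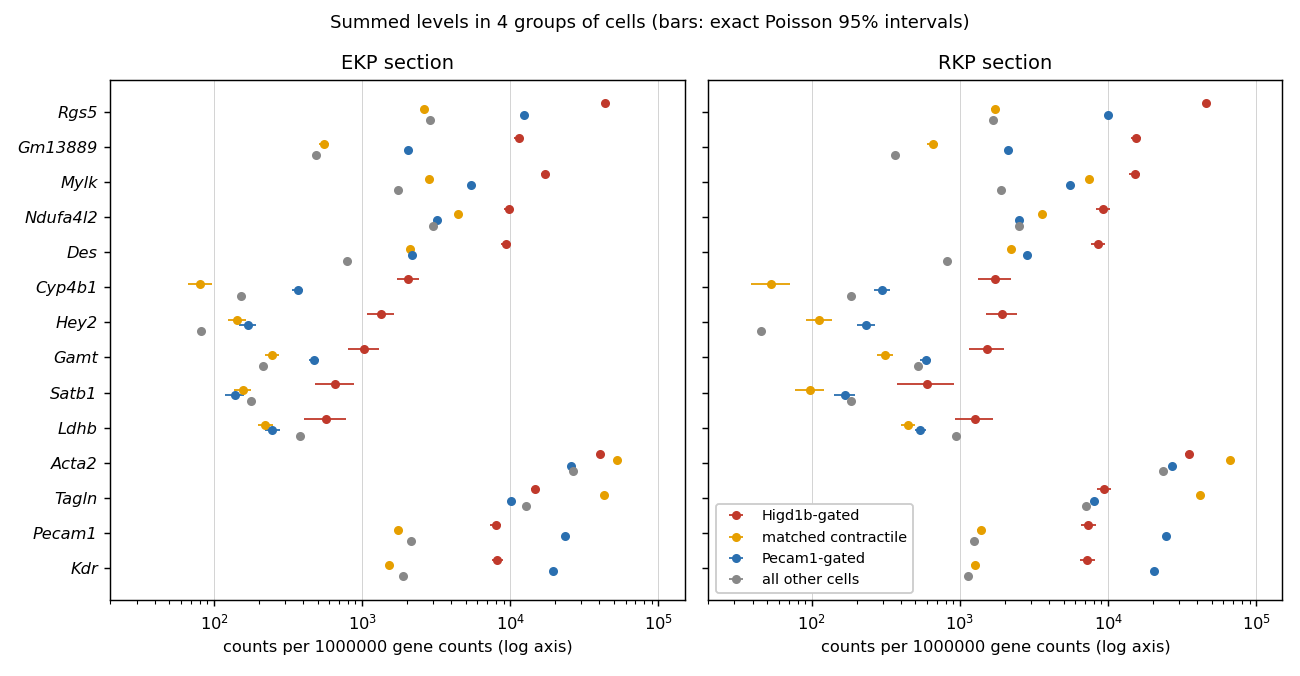
Levels of selected genes (counts per 1000000 gene counts, log axis) in Higd1b-gated, matched contractile, Pecam1-gated and all other cells, with 1 panel per section, 1 point per class and bars for exact Poisson 95% intervals of the summed counts. Rgs5 stands at 43289 CPM in the EKP gated cells and 45561 CPM in the RKP gated cells, to the right of every other class, while the Acta2 points lie between 23490.0 and 66826 CPM in all classes shown.

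The comparison given for these cells asks how they differ from other contractile stroma, taken as cells of the same depth with 1 or more Cnn1 counts (calponin), 2 or more Tagln counts (transgelin) and no Higd1b. There were 14337 such cells in EKP and 12098 in RKP, with median totals of 249 and 232 counts. A gene was kept for a comparison when its higher level amounted to at least 20 counts in the smaller group of cells and was above the highest negative control probe, and a 2-fold difference was counted. That is a rule of size, not a test. Of 221 kept genes in EKP, 45 were higher in the gated cells (20.4%) and 55 lower (24.9%). Of 201 in RKP, 47 were higher (23.4%) and 45 lower (22.4%). Among genes kept in both sections, 34 of 195 genes were higher (17.4%) and 36 lower (18.5%). On counts per cell without scaling, where the median over all kept genes moved on the log2 scale from -0.20 to -0.65 in EKP and from -0.04 to -0.59 in RKP, 37 were higher and 87 lower in EKP, and 35 and 81 in RKP.

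The contractile gate has no limit on Ptprc or Epcam. The 12 genes with the largest deficit in both sections were Muc4, Cldn3, Gpa33, Cdh1, Cldn4, Prom1, Cldn2, Cldn7, Acan, Muc1, Slc4a4 and Serpinb5, most of them epithelial junction and mucin genes. All 8 kept epithelial list genes were lower in each section, with median log2 ratios of -3.01 in EKP and -2.68 in RKP. Since the gated cells were chosen for low Epcam, contractile cells that also had no Ptprc and 0 or 1 Epcam were used for the detailed values below. These matched contractile cells numbered 5761 in EKP and 3792 in RKP, with median totals of 228 and 201 counts. Against them 1 of 5 kept epithelial genes (Cdh1) was 2-fold lower in EKP and 0 of 6 in RKP, with no test run. There, 45 of 204 kept genes were higher in the gated cells in EKP (22.1%) and 50 of 189 in RKP (26.5%), and 29 (14.2%) and 26 (13.8%) were lower. In both sections, 33 of 182 genes were higher (18.1%) and 16 lower (8.79%).

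Against all other cells of the same depth, 45 of 232 kept genes were 2-fold higher in the gated cells in EKP (19.4%) and 52 of 214 in RKP (24.3%), and 77 (33.2%) and 64 (29.9%) were lower. Gm13889, Hey2, Rgs5 and Des led the higher genes there, with log2 ratios of 3.92 in EKP and 4.77 in RKP for Rgs5 and of 3.57 and 3.39 for Des.

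The genes furthest above matched contractile cells were a small group, led by Cyp4b1, Gm13889, Rgs5 and Hey2. Cyp4b1, a cytochrome P450 of the fatty acid and xenobiotic family, stood at 2035 CPM in EKP and 1716 CPM in RKP, against 80.5 and 53.1 CPM in matched contractile cells. The ratio was 25.3-fold (19.6 to 32.7) in EKP and 32.3-fold (21.6 to 48.6) in RKP. Gm13889, a gene known by its model name, stood at 11375 CPM in EKP and 15441 CPM in RKP, against 553 and 657 CPM in matched contractile cells. The gated cells were far above the reference in both sections, with ratios of 20.6-fold (18.6 to 22.8) and 23.5-fold (20.9 to 26.5). Rgs5 stood at 2599.6 CPM in EKP and 1712 CPM in RKP in matched contractile cells, 16.7-fold (15.9 to 17.5) and 26.6-fold (24.8 to 28.6) below the gated cells. Hey2, a Notch-responsive transcriptional repressor whose start-site window is printed above, stood at 1347 CPM in EKP and 1906 CPM in RKP, against 143 and 112 CPM. Its ratios were 9.42-fold (7.27 to 12.1) and 17.0-fold (12.3 to 23.4), on 92 and 70 counts in the gated cells.

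Within the pericyte list, 3 of 5 kept genes were 2-fold higher than in matched contractile cells in each section. The median log2 ratios were 1.13 in EKP and 1.37 in RKP. Over all kept genes 22.1% and 26.5% were higher, with medians of 0.11 and 0.30. Ndufa4l2, a mitochondrial protein induced by hypoxia and a pericyte marker, stood at 9735 CPM in EKP and 9232 CPM in RKP, against 4453 and 3562 CPM. Des, the intermediate filament desmin, stood at 9413 CPM in EKP and 8551 CPM in RKP, against 2097 and 2196 CPM. Both were higher in the gated cells of both sections, Ndufa4l2 with log2 ratios of 1.13 and 1.37 and Des with 2.17 and 1.96. Aspn, the matrix proteoglycan asporin, differed by less than 2-fold, with log2 ratios of 0.49 in EKP and 0.58 in RKP. Acta2 was somewhat lower, at 40375 CPM in EKP and 34858 CPM in RKP against 52158 and 66826 CPM, with log2 ratios of -0.37 and -0.94.

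The contractile genes did not move as a block. Of the smooth muscle list, leaving out Tagln and Cnn1, which the contractile gate used, 3 of 6 kept genes were higher in EKP, and 2 were higher and 1 lower of 5 in RKP. The median log2 ratios were 0.99 and 0.10, against 0.11 and 0.30 over all kept genes, so the RKP median lay below that of all kept genes. Of all kept genes 22.1% and 26.5% were higher, and 14.2% and 13.8% lower. Mylk, the kinase that phosphorylates myosin light chain, stood at 17069 CPM in EKP and 15142 CPM in RKP in gated cells and at 2818 CPM in EKP and 7444 CPM in RKP in matched contractile cells. The reference cells differed more between the sections than the gated cells did, and the log2 ratio was 2.60 in EKP and 1.02 in RKP. Myh11, smooth muscle myosin, had log2 ratios of 0.73 in EKP and 0.10 in RKP. Myl9, a myosin regulatory light chain outside the list, had 0.02 in EKP and -1.18 in RKP. Itga8, an integrin subunit of mesenchymal cells, was counted 36 times in the EKP gated cells and 11 times in the RKP gated cells, and its log2 ratios were 0.48 in EKP and -2.43 in RKP.

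Several genes of matrix-making stroma were lower in the gated cells than in matched contractile cells, and fewer were against the other references. Of the fibroblast list, 3 of 6 kept genes were 2-fold lower and 1 higher in EKP, and 3 of 5 were lower in RKP, with median log2 ratios of -0.81 and -1.03. Over all kept genes 14.2% and 13.8% were lower, with medians of 0.11 and 0.30. Against the contractile gate without the Ptprc and Epcam limits, 0 of 6 list genes were lower and 1 higher in EKP (median -0.33). In RKP 2 of 5 list genes were lower (median -0.46). There the medians over all kept genes were -0.20 in EKP and -0.04 in RKP. Against all other cells none was 2-fold different, of 7 kept in EKP (median -0.49) and of 5 in RKP (median 0.32). The gene higher than in matched contractile cells was Dpt, the matrix protein dermatopontin, with a log2 ratio of 1.03 in EKP, which was not kept in RKP. Lum, the collagen-binding proteoglycan lumican, stood at 4509 CPM in EKP and 5828 CPM in RKP, against 9584 and 11864 CPM, and against the wider contractile gate its log2 ratios were under 2-fold (-0.61 and -0.46). Mfap5, a microfibril glycoprotein, had log2 ratios of -1.05 in EKP and -1.49 in RKP, and Sfrp1, a secreted inhibitor of Wnt signalling, had -1.17 in EKP and -2.27 in RKP. Col1a1, type I collagen, was abundant in both, at 54517 CPM in EKP and 55828 CPM in RKP in gated cells, and differed by under 2-fold.

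Outside the fibroblast list, the lower genes in both sections included Ccn1 and Ccn2, matricellular proteins that are targets of YAP, and Thbs1, the matricellular thrombospondin. Thbs1 stood at 16674 CPM in EKP and 13535 CPM in RKP, against 52245 and 56477 CPM, a deficit of 3.13-fold (2.96 to 3.33) in EKP and 4.17-fold (3.82 to 4.57) in RKP. Ccn2 had log2 ratios of -1.54 in EKP and -2.09 in RKP, and Ccn1 had -1.43 and -2.04. The elastic fibre genes Mfap4 (-1.55 and -1.95) and Fbln5 (-1.07 and -1.25) were lower too, Fbln5 by under 2-fold against the wider contractile gate (-0.70 and -0.70). Fxyd6, an ion pump regulator, had -1.91 and -2.20, and Vegfa, the main growth factor for endothelium, had -2.25 and -1.58.

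**Figure D2:**
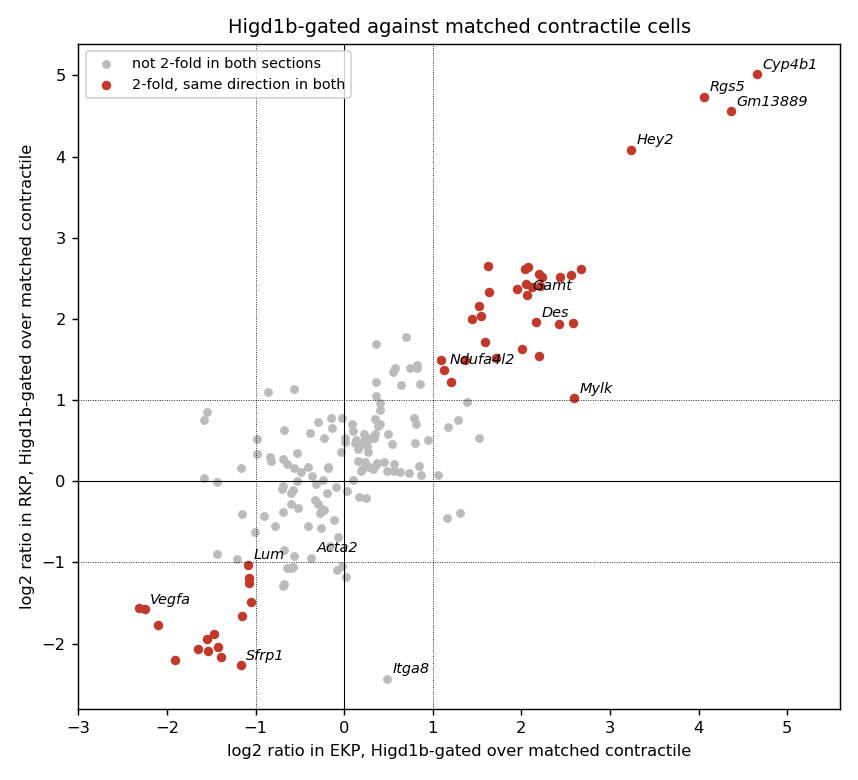
Log2 ratio of each kept gene in Higd1b-gated over matched contractile cells, EKP on the x axis and RKP on the y axis, 1 point per gene, red where the gene was 2-fold different in the same direction in both sections. Cyp4b1, Gm13889, Rgs5 and Hey2 lie at the upper right, with values of 4.06 and 4.73 for Rgs5, Sfrp1 (-1.17 and -2.27) lies at the lower left, and Itga8 (0.48 and -2.43) lies off the diagonal.

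Endothelial genes were also high in the gated cells. Of 11 kept genes of the blood endothelial list, 10 were 2-fold above matched contractile cells in EKP and 11 in RKP, with median log2 ratios of 2.12 and 2.39. Over all kept genes 22.1% and 26.5% were higher, with medians of 0.11 and 0.30. Kdr, the main VEGF receptor, had 2.43 in EKP and 2.52 in RKP, Tie1 had 2.23 and 2.52 and Vwf, von Willebrand factor, had 2.04 and 2.61. Summed over the list, the gated cells stood at 83635 CPM in EKP and 81127 CPM in RKP, between matched contractile cells (20133 and 17977 CPM) and Pecam1-gated cells (198922 and 200852 CPM). An outlined cell can take in a neighbour's molecules, and the part of endothelial RNA in the values of the gated cells was not tested. The next values show how the mural genes stood where Pecam1 was absent.

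The endothelial signal was unevenly spread among the gated cells. Pecam1 was at 0 in 142 of the EKP cells (40.1%) and 101 of the RKP cells (47.2%), and at 2 or more in 127 (35.9%) and 63 (29.4%). Summed over the endothelial list without Pecam1, the Pecam1-negative gated cells stood at 39446 CPM in EKP and 33108 CPM in RKP. Gated cells with 2 or more Pecam1 counts stood at 118628 CPM in EKP and 129899.9 CPM in RKP. Cells with neither Higd1b nor Pecam1 that passed the other conditions stood at 9214 CPM in EKP and 11534 CPM in RKP, and matched contractile cells with no Pecam1 at 6761 CPM in EKP and 6998 CPM in RKP. The Pecam1-negative gated cells thus stood above both of these in both sections, and below the gated cells with 2 or more Pecam1 counts. Rgs5 was about as high in both kinds of gated cell. Cyp4b1 was higher where Pecam1 was absent in EKP, on 76 counts against 36, and differed little in RKP, on 32 counts against 19. Rgs5 stood at 46453 CPM in EKP and 43686 CPM in RKP where Pecam1 was 0, and at 39872 CPM in EKP and 44120.1 CPM in RKP where it was 2 or more. Cyp4b1 stood at 3287 CPM in EKP and 1912 CPM in RKP where Pecam1 was 0, and at 1319 CPM in EKP and 1558 CPM in RKP where it was 2 or more. The Pecam1-negative cells were shallower in EKP, with a median of 151 counts against 202, and in RKP with 151 against 198.

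Set against the Pecam1-gated cells, the gated cells had more of the mural genes and less of the endothelial ones. Of 205 kept genes in EKP, 24 were 2-fold higher in the gated cells (11.7%) and 27 lower (13.2%). Of 196 in RKP, 25 were higher (12.8%) and 36 lower (18.4%). In both sections 18 of 186 were higher (9.68%) and 20 lower (10.8%). All 10 kept endothelial list genes were lower in RKP and 7 of 10 in EKP, with a median log2 ratio of -1.30 in each. Pecam1 itself was left out of these counts, since the reference was chosen on it. The reference also required no Higd1b. Genes that go with Pecam1 or with Higd1b can therefore differ in these directions through the choice of cells alone. Plvap, the protein of endothelial fenestral diaphragms, had log2 ratios of -1.36 in EKP and -1.47 in RKP. Of 5 kept pericyte list genes, 4 were higher in each section, with medians of 1.70 and 1.89 against 0.04 and 0.04 over all kept genes. Hey2 had 2.99 in EKP and 3.04 in RKP, Rgs5 had 1.80 and 2.20 and Des had 2.11 and 1.60. Twist1, a mesenchymal transcription factor, had 1.28 and 1.44.

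Genes 2-fold above both references in both sections were named for their values, 10 of 177 genes kept in all 4 comparisons (5.65%). The comparisons share the gated cells, so this count is a way of choosing names and is no separate evidence. The 10 were Rgs5, Gm13889, Hey2, Cyp4b1, Des, Mylk, Ndufa4l2, Gamt, Satb1 and Ldhb. Gamt, which makes creatine, stood at 1025 CPM in EKP and 1525 CPM in RKP in gated cells, against 245 and 311 CPM in matched contractile and 472 and 585 CPM in Pecam1-gated cells. Satb1, a chromatin organiser, stood at 659 CPM in EKP and 599 CPM in RKP, against 157 and 96.6 CPM in matched contractile cells and 138 and 167 CPM in Pecam1-gated cells. Ldhb, the lactate dehydrogenase B subunit, stood at 571 CPM in EKP and 1253 CPM in RKP, against 222 and 445 CPM and 248 and 541 CPM in the same references. The last 3 genes rest on few molecules: 70 and 56 counts of Gamt, 45 and 22 of Satb1, and 39 and 46 of Ldhb.

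Rgs5, Gm13889 and Hey2 were graded with the Higd1b count itself, and not every mural gene was. In cells meeting the other conditions, with 0, 1, 2, 3, and 4 or more Higd1b counts, Rgs5 stood at 4662, 29038, 41437, 45905 and 55875 CPM in EKP. In RKP it stood at 2858, 29399, 42948, 50935 and 55669 CPM. The cells just outside the threshold, with 1 count, were thus closer to the gated cells than to cells with none. Gm13889 followed the same order, at 870.2, 7272, 10892, 11527 and 16547 CPM in EKP. In RKP it stood at 756, 8106, 14104, 17637 and 21682 CPM. Hey2 stood at 119, 951, 1034, 1955 and 2878 CPM in EKP, and at 90.2, 958, 1646, 2585 and 2637 CPM in RKP. Pecam1 did not climb in this way: it stood at 4282, 9946, 8843, 6269 and 4317 CPM in EKP and at 3087, 9752, 7445, 8058 and 5274 CPM in RKP. Of other mural genes, Ndufa4l2 climbed at each step in both sections, while Des, Mylk and Cyp4b1 did not. With 2, 3, and 4 or more counts, Des stood at 9533, 8359 and 11751 CPM in EKP and at 8006, 10339 and 9376 CPM in RKP. Mylk was highest at 3 counts in both sections. Cyp4b1 fell in EKP, at 2231, 1685 and 959 CPM, and climbed in RKP, at 1571, 1825 and 2637 CPM. The groups with 4 or more counts held 23 cells in EKP and 20 in RKP. Cells with 1 count numbered 1337 and 705, and those with 2 numbered 258 and 155.

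**Figure D3:**
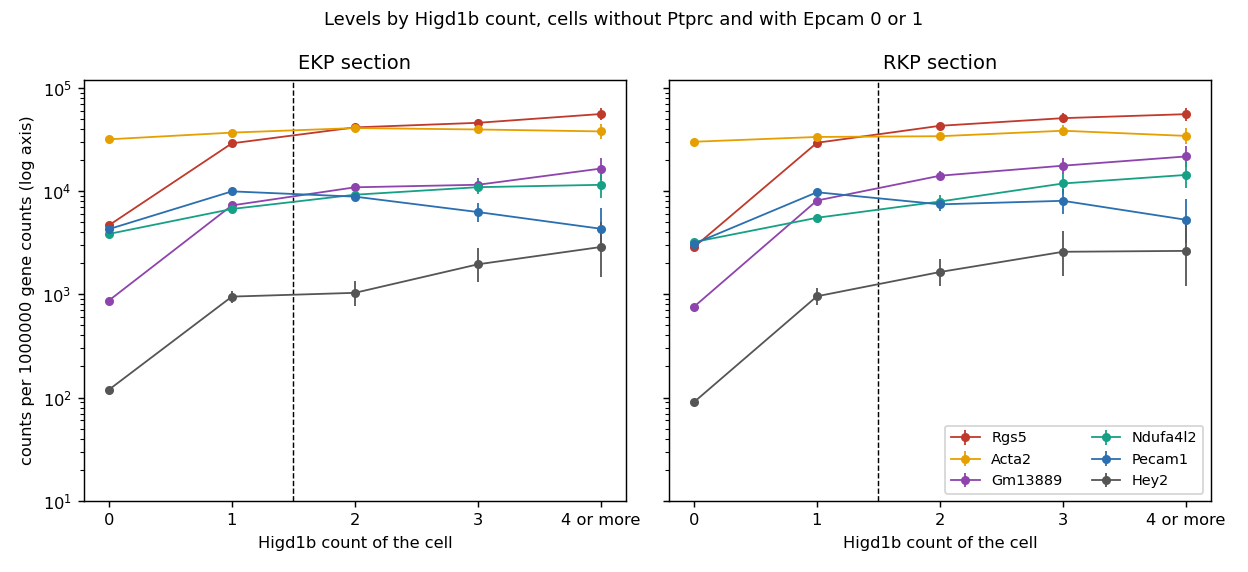
Level of selected genes (counts per 1000000 gene counts, log axis) by Higd1b count in cells that met the other conditions, 1 panel per section, 1 line per gene, bars for exact Poisson 95% intervals and a dashed line at the threshold. Rgs5 goes from 4662 to 55875 CPM in EKP and from 2858 to 55669 CPM in RKP, while Acta2 stays nearly level.

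The gate took few of the cells rich in Rgs5. With the same limits on depth, Ptprc and Epcam, 3400 cells in EKP and 1950 in RKP held 5 or more Rgs5 counts. Of these, 7.88% and 7.79% had 2 or more Higd1b counts, and 2470 (72.6%) and 1476 (75.7%) had none. Turned around, 268 gated cells in EKP (75.7%) and 152 in RKP (71.0%) held 5 or more Rgs5 counts. The Rgs5-rich cells without Higd1b had Gm13889 at 7042 CPM in EKP and 8916 CPM in RKP and Hey2 at 666 CPM in EKP and 1075 CPM in RKP. Both levels were below those of the gated cells. Their Pecam1 stood at 12074 CPM in EKP and 11376 CPM in RKP, against 8008 CPM in EKP and 7353 CPM in RKP in the gated cells. Rgs5-rich cells without Higd1b thus had less of both mural genes and more Pecam1.

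Among the gated cells, those with more Acta2 had more of most other contractile genes. Gated cells were split at the median share of Acta2 in their counts, 3.57% in EKP and 3.27% in RKP. Tagln stood at 8507 CPM in EKP and 4785 CPM in RKP on the lower side and at 20723 CPM in EKP and 14179.6 CPM in RKP on the upper side. Mylk stood at 12967 CPM in EKP and 12921 CPM in RKP on the lower side and at 21100.0 CPM in EKP and 17473 CPM in RKP on the upper side. Cnn1, Myh11, Myl9 and Itga8 were also higher on the upper side in both sections. Des was nearly level, at 9098 and 9723 CPM in EKP and at 8454 and 8653 CPM in RKP. Mustn1, another gene of the smooth muscle list, was lower on the upper side in EKP, on 15 and 10 counts, and higher in RKP, on 5 and 11. Rgs5 differed less than Tagln and Mylk, from 38400.2 CPM in EKP and 42856 CPM in RKP to 48092 CPM in EKP and 48401 CPM in RKP. Acta2 was at 0 in 8 gated cells in EKP and in 4 in RKP, too few to describe apart. Gated cells that also met the Cnn1 and Tagln limits of the contractile gate numbered 37 in EKP and 16 in RKP.

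Signal of other cell types was also present in the gated cells. Epithelial list genes other than Epcam gave at least 1 count in 63.6% of gated cells in EKP and 67.8% in RKP, with a median of 1 count per cell in each. Summed, they stood at 10584 CPM in EKP and 11302 CPM in RKP, against 156908 and 173073 CPM in Epcam-high cells. Macrophage list genes stood at 11287 CPM in EKP and 27451 CPM in RKP, against 14528 and 31895 CPM in matched contractile cells, with Retnla at 0 in both sections and Marco and Cd5l at 0 in RKP. Neutrophil list genes stood at 14742 CPM in EKP and 17619.8 CPM in RKP, most of it from Mmp9, a secreted matrix protease (13205 and 15387 CPM). The same list stood at 19574 and 16409 CPM in matched contractile cells, 7426 and 9852 CPM in Pecam1-gated cells and 13633 and 12231 CPM in all other cells. The gated cells were thus above all other cells and above Pecam1-gated cells in both sections, and the part of neutrophil RNA in the results was not tested. T cell list genes gave a count in 22 gated cells in EKP and in 17 in RKP. The cells with 2 or more Higd1b counts that the Ptprc and Epcam conditions removed, 278 in EKP and 211 in RKP, had Rgs5 at 37678 CPM in EKP and 35109 CPM in RKP. Their Krt8, an epithelial keratin, stood at 14413 CPM in EKP and 13611 CPM in RKP, above the gated cells (5343 and 4820.3 CPM).

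Between the lines, the core mural genes of the gated cells differed by less than 2-fold, as most kept genes did. For this comparison a gene was kept when it had at least 20 counts in 1 of the sections. Of 205 kept genes, 20 were 2-fold higher in RKP (9.76%), 11 were lower (5.37%) and 174 lay between. On counts per cell, 16 were higher and 17 lower, and with Higd1b at 3 or more, 7 were higher and 18 lower. All 5 kept pericyte list genes lay between, with a median log2 ratio of RKP over EKP of -0.08, where the median over all kept genes was 0.03. The RKP over EKP ratio of Rgs5 was 1.05 (0.991 to 1.12), that of Ndufa4l2 was 0.948 (0.830 to 1.08), that of Des was 0.908 (0.791 to 1.04) and that of Aspn was 1.05 (0.951 to 1.16). In all other cells of the sections Rgs5 was lower in RKP, at 2853 CPM in EKP and 1665 CPM in RKP. Gm13889 had a ratio of 1.36 (1.22 to 1.51), Hey2 1.42 (1.02 to 1.95) and Cyp4b1 0.843 (0.616 to 1.14).

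The contractile genes of the gated cells were mostly lower in RKP, all by under 2-fold. Of 8 kept smooth muscle list genes, 7 had a ratio below 1, none was 2-fold different, and the median log2 ratio was -0.25. Of all 205 kept genes, 96 had a ratio below 1 and 174 were under 2-fold. Acta2 had a ratio of 0.863 (0.807 to 0.923), Mylk 0.887 (0.800 to 0.982), Myh11 0.702 (0.558 to 0.880) and Tagln 0.639 (0.563 to 0.723). Myl9, which is not in the list, stood at 8374 CPM in EKP and 4385 CPM in RKP, with a ratio of 0.524 (0.437 to 0.625). In matched contractile cells the log2 ratios of RKP over EKP were 0.36 for Acta2, 0.26 for Myl9 and -0.04 for Tagln, beside -0.21, -0.93 and -0.65 in the gated cells. Whether the classes differ in this was not tested.

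Of the genes that differed 2-fold between the lines in the gated cells, some also differed 2-fold in the rest of the tissue and some did not. Of the 20 higher in RKP, 10 were also 2-fold higher in all other cells, and of the 11 lower in RKP, 6 were also 2-fold lower. Counting direction alone, 19 of the 20 and 8 of the 11 had a ratio on the same side of 1 in all other cells, where 65 of all 109 kept genes with a ratio above 1 and 59 of all 96 with a ratio below 1 did. For 8 of the 20 and 3 of the 11, the gated cells of the section with the higher level stood at or above all other cells there, as they did for 106 of all 205 kept genes. The 8 included Ldhb, AU021092, Pygm, Nts, Fmo5, Ptn and Ttn. Ptn, the heparin-binding growth factor pleiotrophin, stood at 819.8 CPM in EKP and 3513 CPM in RKP, with an RKP over EKP ratio of 4.29 (3.11 to 5.97), and its log2 ratio was 2.10 in the gated cells and 2.10 in all other cells. Ttn, the giant sarcomere protein titin, rests on very few cells: 37 counts in 4 RKP cells, 18 of them in 1 cell, against 2 counts in EKP.

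The other genes higher in the RKP gated cells stood below the level of all other cells. That reference has no limit on Ptprc or Epcam, so it is not matched to the gated cells for epithelial and leukocyte genes. Arg1, arginase 1, an enzyme of macrophages in tumours, stood at 3191 CPM in EKP and 12119 CPM in RKP, against 8478 and 17104 CPM in all other cells. Its ratio was 3.80 (3.22 to 4.49) in gated cells and 2.02 (2.01 to 2.03) in the others. Of 6 kept macrophage list genes, 2 were 2-fold higher in RKP, Arg1 and the chemokine Ccl9, with a median log2 ratio of 0.89. Over all kept genes 9.76% were higher in RKP, with a median of 0.03. Gabrp, a GABA receptor subunit of epithelia, Prom1 (prominin 1) and Sox9, a progenitor transcription factor, had log2 ratios of 3.57, 2.44 and 2.23, beside 2.84, 1.91 and 1.34 in all other cells. A single cell held 17 of the 63 Sox9 counts of the RKP gated cells, and the log2 ratio without it was 1.78. With Higd1b at 3 or more the log2 ratio of Sox9 was -0.56, and with Pecam1 at 0 that of Ldhb was -0.086. Summed over the macrophage list, gated cells stood at 11287 CPM in EKP and 27451 CPM in RKP and all other cells at 33031 and 50540.2 CPM. The gate allowed 1 Epcam count, and a larger part of the gated cells held it in RKP. With Epcam at 0, 281 of 354 gated cells remained in EKP and 131 of 214 in RKP. Genes 2-fold higher in RKP then numbered 12 in place of 20. The part of macrophage and tumour cell RNA in these differences was not tested.

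Genes lower in the RKP gated cells included several that encode secreted proteins. Hp, the haemoglobin scavenger haptoglobin, stood at 1786 CPM in EKP and 272 CPM in RKP, 6.56-fold (3.45 to 14.0) higher in EKP, on 122 and 10 counts. Dpt stood at 966 CPM in EKP and 245 CPM in RKP, and Sfrp1 at 2649.7 CPM in EKP and 1008 CPM in RKP. In all other cells the log2 ratios of RKP over EKP were -0.80 for Hp, -1.87 for Dpt and -1.59 for Sfrp1, beside -2.71, -1.98 and -1.39 in the gated cells. The 3 genes at or above the level of all other cells were S100b, Cavin2 and Smad6. Cavin2, a coat protein of caveolae, stood at 1654 CPM in EKP and 817 CPM in RKP, and Smad6, an inhibitor of BMP signalling, at 1098 CPM in EKP and 545 CPM in RKP, with log2 ratios of -1.02 and -1.01 beside 0.15 and 0.02 in all other cells. Without the EKP cell with the most counts of it, each differed by under 2-fold (-0.97 and -0.89), and with Higd1b at 3 or more Smad6 stood at 0.035.

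**Figure D4:**
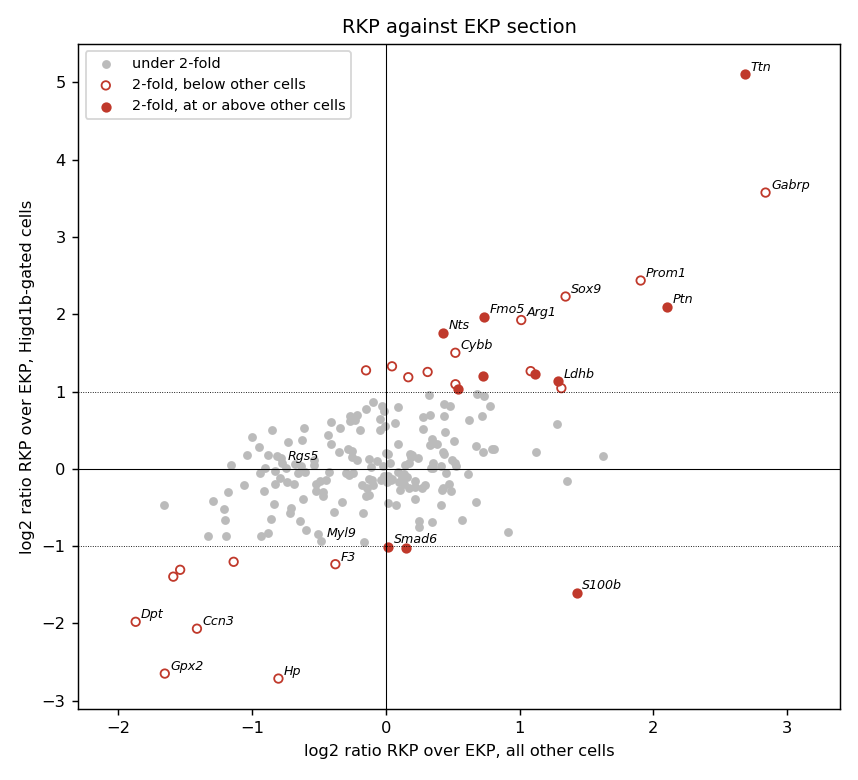
Log2 ratio of RKP over EKP for each kept gene, in all other cells (x axis) and in Higd1b-gated cells (y axis), 1 point per gene, red where 2-fold in the gated cells and filled where the level there was at or above that of all other cells. Rgs5 lies near 0 for gated cells (0.07) and at -0.78 for all other cells, and Ptn lies at 2.10 and 2.10.

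The genes of signalling across the vessel wall were measured in part. Of 13 measured members, 12 were kept, and 5 in EKP and 9 in RKP were 2-fold above matched contractile cells, with 1 below in each section, where 22.1% and 26.5% of all kept genes were higher. The median log2 ratios were 0.82 and 1.47, against 0.11 and 0.30 over all kept genes. Against all other cells 4 were higher in each section and 2 in EKP and 1 in RKP were lower, with medians of 0.73 and 0.07. Against Pecam1-gated cells none was higher, and 6 and 7 were lower. This list shares genes with the blood endothelial list, among them Kdr, Angpt2, Sox17 and Cavin2, so its counts partly repeat the endothelial ones. Pdgfb, the pericyte-recruiting ligand made by endothelium, stood at 4069.7 CPM in EKP and 2941 CPM in RKP, against 9275 and 7144 CPM in Pecam1-gated and 1245 and 1028 CPM in matched contractile cells. Its level in the gated cells thus lay between the others, as the endothelial list did. Angpt2, an angiopoietin that loosens the pericyte coat, stood at 4714 CPM in EKP and 2941 CPM in RKP, against 8266 and 6572 CPM in Pecam1-gated cells and 881 and 769 CPM in matched contractile cells. Hey1, the other Hey-family repressor on the panel, had log2 ratios of 1.95 in EKP and 2.37 in RKP over matched contractile cells and of -1.10 in EKP and -0.80 in RKP over Pecam1-gated cells. Hey2, by contrast, stood above both references.

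Genes of the cell cycle were measured in the gated cells of both sections. Of 6 proliferation genes, 6 were 2-fold above matched contractile cells in RKP and 0 in EKP, with median log2 ratios of 1.29 and 0.56, where 26.5% and 22.1% of all kept genes were higher. Whether the sections differ in this was not tested. The count changed with the reference. Against the contractile gate without the Ptprc and Epcam limits 1 of 6 was higher in each section, Pclaf in EKP and Mki67 in RKP, with medians of 0.68 and 0.55. Against all other cells none was 2-fold different in EKP (median 0.33), and in RKP all 6 had ratios below 1 (median -0.53), with Ube2c 2-fold lower. Mki67, the Ki-67 antigen of cycling cells, stood at 3997 CPM in EKP and 3295 CPM in RKP in gated cells, against 2457 and 961 CPM in matched contractile cells and 3346 and 3247 CPM in Pecam1-gated cells. Between the sections, all 6 had an RKP over EKP ratio below 1 in the gated cells, with a median log2 ratio of -0.54, and for Mki67 it was -0.28 there and -1.35 in matched contractile cells. Pclaf, a partner of the replication clamp, stood at 5724 CPM in EKP and 3595 CPM in RKP in gated cells, against 3168 and 1567 CPM in matched contractile cells. Against Pecam1-gated cells no proliferation gene was 2-fold different in either section.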

How the data were processed

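Xenium In Situ counts of 479 genes and 20 negative control probes were read in 1 EKP and 1 RKP section. The authors deposited raw transcript counts per feature and cell, per the file headers, with no normalization. The submitters' processing notes name Seurat 4.4.0 without saying what it did. How cells were segmented and which genome build was used were details not given in the sources used here. Doublets were not called. Segmentation decides which molecules a cell is given, so it can move every value.

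Cells and lists were chosen with earlier results of these data known. Counts were summed over the cells of a class and scaled to 1000000 gene counts (CPM). The 95% intervals are conditional binomial for ratios and Clopper-Pearson for shares, both exact and for counting error only. A total of 0 was given a floor of 3 counts. Genes that defined a gate were left out of counts of genes. A gene was kept at 20 or more counts and above the highest negative control probe, and a 2-fold difference was counted. The rule for named genes took the 12 largest ratios in each direction against contractile cells, against all other cells and between the lines, with the measured members of the pericyte, smooth muscle, fibroblast and endothelial lists. Genes named from the matched contractile and Pecam1-gated references, the split by Rgs5 and the 10 genes above both references were chosen after values were seen. Those references share no cell with the gated cells. Some genes are not reported here. For detection, cells were thinned to 80 gene counts. The alternatives were other depth, Higd1b, Epcam and Pecam1 limits, other contractile gates, scalings and filters. The steps were tested on simulated data. Python 3.11.15, numpy 2.4.6, scipy 1.17.1, pandas 2.3.3 and matplotlib 3.10.9 were used.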

Additional observations from a re-analysis of the deposited data

Results flagged for a closer look

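Itga8, an integrin subunit, moved in opposite directions in the sections. Its log2 ratio of gated over contractile cells was 1.03 in EKP and -1.63 in RKP, and against matched contractile cells 0.48 and -2.43. The gated cells held 36 and 11 counts, or 527 and 299.6 CPM, while matched contractile cells stood at 377 and 1614 CPM. The difference was not tested.

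S100b, a calcium-binding protein of Schwann cells and other types, went opposite ways in the gated cells and in the rest of the tissue. Its log2 ratio of RKP over EKP was -1.61 in gated cells and 1.43 in all other cells, on 34 counts in 31 EKP gated cells and 6 counts in 5 RKP gated cells. In matched contractile cells it was -1.10 and in Pecam1-gated cells -0.34. The difference was not tested.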

How the results depend on the processing

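Alternatives changed the numbers of genes more than their directions. The 285 values of single genes were all 2-fold differences. Of their 4254 alternative values, 4041 stayed 2-fold in the same direction, 196 fell under 2-fold and 17 changed sign. Some of these could not change. No filter, a limit of 50 counts and a limit of 1000 CPM alter only which genes are kept, not their ratios. Under each of those settings all 285 values stayed by construction. Of the alternative values of counts of genes and of the share, 100 stayed within 1.5 times, or for the share within its counting interval, and 29 did not. The RKP over EKP share of 0.400 was 0.325 at 160 or more gene counts and 0.308 with Epcam at 0. It was 0.466 with every cell thinned to 80 gene counts before gating, 0.470 with Pecam1 at 0 and 0.424 at 40 or more gene counts. With Higd1b at 1 or more it was 0.359, and at 3 or more 0.406. Genes higher in RKP than in EKP gated cells, 20 in number, became 35 with Higd1b at 1 or more, 7 at 3 or more, 12 with Epcam 0, 10 with Pecam1 0, 54 with no filter on low counts, 11 at 1000 CPM or more and 9 after thinning to 80 counts. Genes lower in RKP, 11 in number, became 26, 18, 32 and 7 with Higd1b at 1 or more, Higd1b at 3 or more, no filter and 1000 CPM, and 17 on counts per cell. A limit of 50 counts in place of 20, chosen after seeing the data, left 8 higher, and so did keeping genes at or above the level in all other cells, also chosen afterwards, with 3 lower.

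Genes above contractile cells numbered 30 in RKP with Higd1b at 3 or more, and 85 in EKP and 104 in RKP with no filter. Genes below them numbered 31 in EKP with Pecam1 0, 89 with no filter, 29 in EKP and 26 in RKP against matched contractile cells, and 87 and 81 on counts per cell. Genes above all other cells numbered 29 in EKP with Pecam1 0, and 68 and 86 with no filter.

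Of the signs that changed, the log2 ratio of Pecam1 over contractile cells became -3.22 in EKP and -2.17 in RKP in Pecam1-negative gated cells, as that choice fixes, and -4.05 and -2.79 over all other cells. Against matched contractile cells it became 0.72 for Cldn7, 0.043 for Ly6g and 0.19 for Mpeg1 in EKP, and 0.30 for Acan, 0.14 for Cldn2, 0.21 for Krt8 and 0.39 for Ly6g in RKP. With Higd1b at 3 or more, RKP over EKP became -0.66 for Pcolce2, 0.035 for Smad6 and -0.56 for Sox9, and with Pecam1 0 it became -0.086 for Ldhb. At 160 or more counts, Ttn in RKP became -0.57 over contractile cells and -1.91 over all other cells. Apart from the choices of cells that fix a value, the cause was not tested.

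No paired analysis was possible because each line had 1 section and the labels give no replicate numbers. With 1 section per line, the spread between tumours is unknown. The RKP gated cells hold 36720 counts in all, and a gene at 0 could stand at up to 3 counts. Between the lines a gene was kept with 20 counts in 1 section, so some kept genes rest on few RKP counts, such as Hp on 10 and S100b on 6. Single cells decide some values, such as Ttn, whose log2 ratio between the lines was 5.10, and 4.14 without its top cell.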

Other observations

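Trp53, the tumour suppressor p53, stood higher in the gated cells than in matched contractile and Epcam-high cells in both sections, and about as high in Pecam1-gated cells. Its level was 4919 CPM in EKP and 4139 CPM in RKP in gated cells, 2139.7 and 1768 CPM in matched contractile cells, 4585 and 4465 CPM in Pecam1-gated cells and 879.6 and 930.5 CPM in Epcam-high cells. The log2 ratio over matched contractile cells was 1.20 and 1.23. Gated and Pecam1-gated cells differed by under 2-fold, with log2 ratios of 0.10 and -0.11.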
